A study of Mus musculus with 12 samples.

Results

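Expression of 7 genes of the SREBP2 sterol program, Srebf2, Insig1, Hmgcs1, Idi1, Fdft1, Sqle and Cyp51, was described in cardiac macrophages (Mφ) from saline-infused and isoproterenol-infused mice. The genes were taken by symbol from the 24445 gene symbols of the count files. All 7 were present, and all 7 passed the filter on low counts that left 14608 genes for testing. None of the 7 is itself a lipoprotein receptor, so the uptake side of the program was read from the wider lists given further on.

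RNA was sequenced from CD14+/CD64+ cells sorted by flow cytometry from hearts of adult male C57BL6/J mice, with 1 library per mouse and 4 mice per group. Ct mice carried a saline pump for a time that the sources do not state mouse by mouse. Mice with early concentric hypertrophy (ECH) carried a pump that released isoproterenol, which stimulates β-adrenergic receptors, for 14 days, and mice with heart failure (HF) carried it for 28 days, both with 30 mg/kg/day. The labels name no age and no engineered allele, and nothing in them says that animals were pooled.

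SREBP2, the product of Srebf2, is a transcription factor held in the membrane of the endoplasmic reticulum together with its escort SCAP. When membrane sterol is high, INSIG proteins retain the complex there. When sterol falls, SREBP2 travels to the Golgi, is cut, and its released part switches on genes that make and import cholesterol. Insig1 is itself one of these genes, which closes a feedback loop. The enzymes act in order along the pathway: HMGCS1 makes HMG-CoA, IDI1 isomerises the isoprenoid building block, FDFT1 (squalene synthase) commits carbon to sterols, SQLE (squalene epoxidase) oxidises squalene, and CYP51 removes a methyl group from lanosterol. Mφ also receive cholesterol by taking up lipoproteins and dead cells.

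In GRCm38, Srebf2 lies on the plus strand at chr15:82147181-82205379 and holds the microRNA gene Mir33 and the gene model Gm49502 on the same strand. Insig1 lies at chr5:28071363-28078662, Hmgcs1 at chr13:119690379-119708260, Idi1 at chr13:8885501-8892451 and Sqle at chr15:59315077-59331192. Fdft1 (chr14:63145150-63179578) and Cyp51 (chr5:4081145-4104746) lie on the minus strand and overlap Ctsb and Akap9 on the plus strand. An antisense gene also overlaps Hmgcs1 and another overlaps Idi1. The sources used here do not state whether counting used strand. It is therefore not known whether reads from the overlapping genes were counted for Fdft1, Cyp51, Hmgcs1 and Idi1. A strand setting would not separate Srebf2 from the 2 genes it overlaps.

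Promoter sequence from RefSeq (GRCm38.p6) was matched for 5 of the 7 genes, Srebf2, Insig1, Hmgcs1, Idi1 and Cyp51. The 250 bases before each start were searched on both strands for the sterol regulatory element core TCACNCCA, the CCAAT box CCAAT, the GC box GGGCGG and the E-box CACGTG. The sterol element letters were found in Hmgcs1 (137 to 130 bases before the start) and Srebf2 (162 to 155 bases before it), and 3.67% of all 32851 RefSeq promoters held them. The CCAAT box (33.8% of all promoters) and the GC box (32.7%) were found in all 5, and the E-box (6.02%) in Insig1. None of these matches overlapped another of a different motif. These letter matches describe the sequence and not a site in use. The bases before the transcribed part are shown for the 2 genes with the sterol element letters and for Cyp51, the one gene whose HF values all lay above its Ct values. Capitals mark TCACNCCA or CCAAT on either strand, so ATTGG is CCAAT read on the other strand, and the CCAAT box of Cyp51 lies nearer the start than the stretch shown. The stretches are chr15:82147019-82147180 (plus strand), chr13:119690101-119690350 (plus strand) and chr5:4104747-4104947 (minus strand), each written 5′ to 3′.
Srebf2: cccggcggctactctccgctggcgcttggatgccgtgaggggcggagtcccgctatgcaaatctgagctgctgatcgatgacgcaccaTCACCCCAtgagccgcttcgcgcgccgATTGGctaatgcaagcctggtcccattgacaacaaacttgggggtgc
Hmgcs1: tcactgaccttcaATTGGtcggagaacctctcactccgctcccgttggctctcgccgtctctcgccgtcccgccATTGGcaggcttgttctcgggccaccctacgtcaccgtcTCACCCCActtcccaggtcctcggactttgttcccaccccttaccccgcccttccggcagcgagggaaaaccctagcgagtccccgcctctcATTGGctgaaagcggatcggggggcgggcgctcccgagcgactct
Cyp51: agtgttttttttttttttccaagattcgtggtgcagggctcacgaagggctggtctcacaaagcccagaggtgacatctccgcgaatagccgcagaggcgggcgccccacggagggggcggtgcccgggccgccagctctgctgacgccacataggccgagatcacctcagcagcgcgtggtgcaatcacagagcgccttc

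The libraries held 88466559 to 111180291 counts. Summed over 8 Mφ markers, the level ranged from 10662 to 14121 CPM ( each count as a share of its TMM-scaled library total), and both genes of the sort, Cd14 and Fcgr1, were among the 8. Ct 2 and HF 1 stood apart, with 127 and 188 genes at 0 that held at least 100 counts in every other mouse of their group, against 7 or fewer such genes in each other library. Ct 2 also held the highest summed levels of B cell markers (502 CPM against 44.4 to 263 in the others) and of neutrophil markers (1634 against 131 to 1266). B cell markers summed to 106 to 502 CPM in Ct, 44.4 to 88.8 in ECH and 58.2 to 86.0 in HF, and the 7 measured were all lower by fitted fold change in ECH and HF than in Ct. Neutrophil markers summed to 346 to 1634 CPM in Ct, 191 to 527 in ECH and 131 to 1266 in HF, with none of 8 called. Fibroblast markers summed to 29.9 to 195 CPM in Ct, 90.7 to 469 in ECH and 82.4 to 250.4 in HF. Of the 8, 7 were higher in ECH and 8 in HF than in Ct by fitted fold change, the direction of most of the sterol genes, with medians of 1.19 and 0.67 on the log2 scale and none called. Cardiomyocyte markers summed to 101 to 287 CPM in Ct, 93.6 to 183 in ECH and 70.1 to 120.3 in HF. Of these, 7 of 8 were lower in ECH and 8 of 8 in HF than in Ct, with none called. At an unadjusted p under 0.05 by edgeR, 1 and 4 of them passed, against 11.9% and 16.1% of all genes. The 7 measured T and NK cell markers were all lower in ECH and HF than in Ct by fitted fold change, with none called, and summed to 12.1 to 54.6 CPM over all libraries, and the endothelial markers summed to 9.52 to 32.3 CPM. Dissociation-response genes summed to 33528 to 45800 CPM in Ct, 13854 to 33430 in ECH and 16583 to 28393 in HF, and the part of these marker differences in the results below was not tested. The library numbers in the labels form 2 runs, which place Ct 1 to 4 with ECH 1 and 2 (set A) and HF 1 to 4 with ECH 3 and 4 (set B). These sets were inferred from the numbers and are not stated by the labels. All Ct mice lie in one and all HF mice in the other, so if the sets mark a batch, HF and Ct can be compared apart from it through the 4 ECH mice alone. In sorted bulk samples, fewer cells of a type and less RNA per cell cannot be told apart.

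Srebf2, the gene of the factor itself, was at 43.2, 36.3, 48.9 and 68.3 CPM in Ct 1 to 4, 51.7, 75.9, 31.8 and 25.6 CPM in ECH 1 to 4, and 58.3, 60.4, 81.8 and 56.9 CPM in HF 1 to 4. The group means were 49.2 ± 13.7 CPM in Ct, 46.2 ± 22.7 in ECH and 64.3 ± 11.7 in HF (SD, n = 4). The ECH mice spanned the widest range, with ECH 3 and 4 below every other mouse, and Ct 4 lay within the HF range.

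Insig1, the membrane protein that retains the SCAP complex, was at 64.8, 38.7, 58.9 and 42.0 CPM in Ct, 55.2, 81.4, 32.4 and 42.3 CPM in ECH, and 54.7, 51.5, 76.4 and 48.5 CPM in HF. The means were 51.1 ± 12.7, 52.8 ± 21.2 and 57.8 ± 12.7 CPM (SD, n = 4). All 3 groups overlapped, and the highest mouse of all, ECH 2, and the lowest, ECH 3, had received the same infusion.

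Hmgcs1, which feeds the mevalonate pathway, was the steadiest of the 7 in Ct, at 29.0, 30.2, 33.9 and 25.3 CPM. ECH mice held 27.0, 56.1, 30.4 and 27.3 CPM, and HF mice 30.1, 43.2, 47.8 and 44.1 CPM. The means were 29.6 ± 3.56, 35.2 ± 14.0 and 41.3 ± 7.74 CPM (SD, n = 4). ECH 2 alone accounted for the higher ECH mean, while 3 of the 4 HF mice lay above all Ct mice and HF 1 lay among them.

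Idi1, the isopentenyl diphosphate isomerase, was at 18.1, 6.03, 24.99 and 15.7 CPM in Ct, 30.4, 49.4, 12.1 and 13.1 CPM in ECH, and 18.5, 36.1, 60.3 and 32.6 CPM in HF. The means were 16.2 ± 7.85, 26.3 ± 17.5 and 36.9 ± 17.4 CPM (SD, n = 4). HF 2, 3 and 4 exceeded every Ct mouse, and the ECH mice split into a high and a low pair.

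Fdft1, squalene synthase, stood at 10.8, 3.12, 15.1 and 11.96 CPM in Ct, 13.2, 18.1, 10.9 and 13.2 CPM in ECH, and 14.5, 14.9, 28.3 and 11.4 CPM in HF. The means were 10.2 ± 5.07, 13.8 ± 3.02 and 17.3 ± 7.51 CPM (SD, n = 4). Apart from a low Ct 2 and a high HF 3, the mice of all 3 groups lay close together.

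Sqle, squalene epoxidase, was at 11.6, 0.105, 24.3 and 5.89 CPM in Ct, 16.97, 29.2, 8.40 and 7.47 CPM in ECH, and 20.8, 25.7, 39.4 and 23.9 CPM in HF. The value of Ct 2 was 9 counts, where the other libraries held 609 to 4233. The means were 10.5 ± 10.4, 15.5 ± 10.1 and 27.5 ± 8.23 CPM (SD, n = 4). Ct 3 lay within the HF range, and the other Ct mice lay below all HF mice.

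Cyp51, the lanosterol demethylase, was at 19.6, 8.05, 24.7 and 16.995 CPM in Ct, 33.7, 49.7, 13.1 and 9.66 CPM in ECH, and 29.9, 41.2, 54.5 and 26.1 CPM in HF. The means were 17.3 ± 6.97, 26.5 ± 18.8 and 38.0 ± 12.8 CPM (SD, n = 4). Every HF mouse exceeded every Ct mouse, by a narrow margin between HF 4 (26.1 CPM) and Ct 3 (24.7 CPM).

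**Figure D1:**
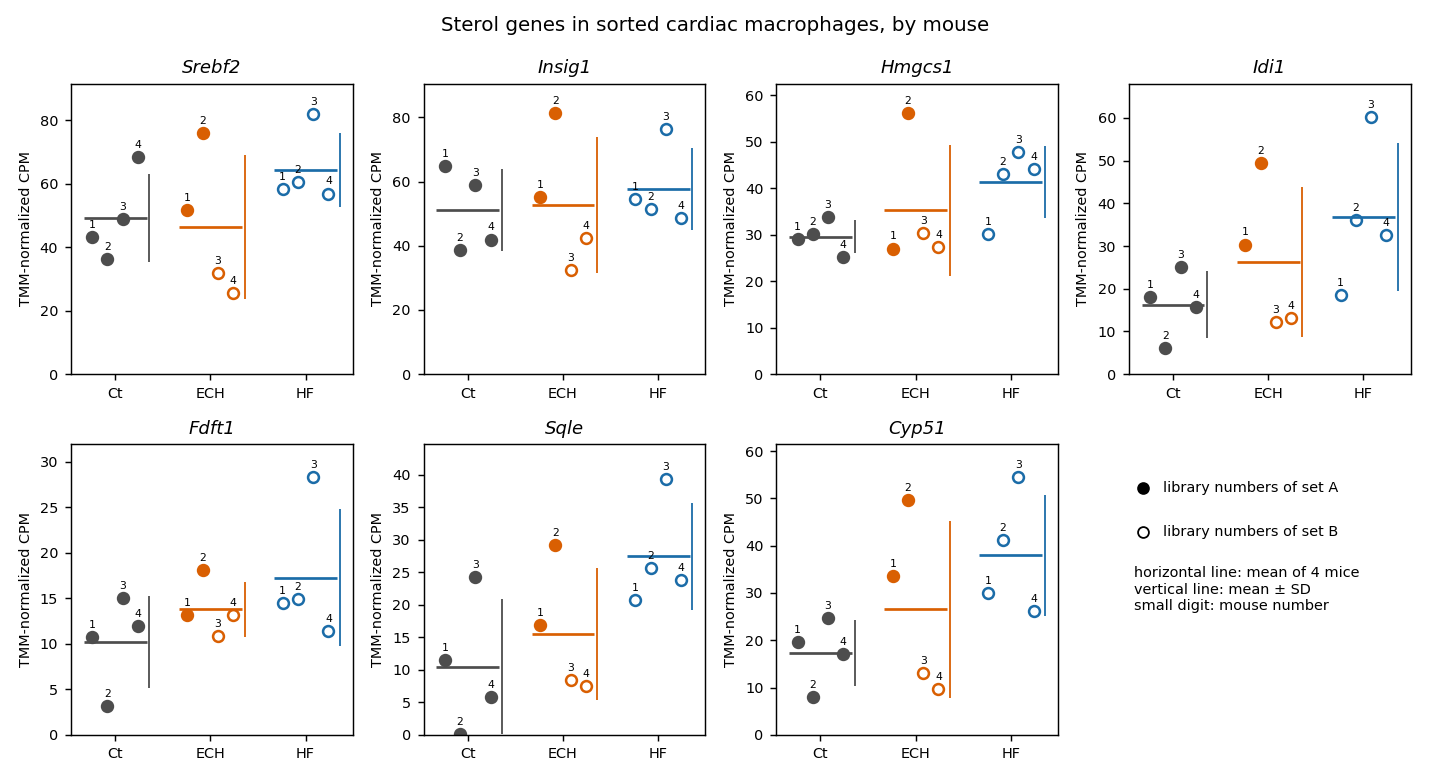
Each panel plots 1 gene, with the group on the horizontal axis and the level in TMM-normalized CPM on the vertical axis, 1 point per mouse numbered as in its group, the mean as a line and the SD as a bar. Filled and open points are the 2 inferred library sets. HF 3 is the highest point for 5 genes and ECH 2 for Insig1 and Hmgcs1, and the filled ECH points lie above the open ones in every panel but that of Hmgcs1.

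Per kb of exon, Insig1 had the highest level of the 7 genes, at 16.5 ± 4.11 CPM per kb in Ct, 17.1 ± 6.85 in ECH and 18.7 ± 4.10 in HF (SD, n = 4). It exceeded the next gene in all 4 mice of each group, but the ranges over mice were apart in Ct alone (Insig1 over Srebf2). In Ct the order below it was Srebf2 (6.85 CPM per kb), Hmgcs1 (6.44), Idi1 (4.62), Cyp51 (3.93), Fdft1 (2.42) and Sqle (1.89), and each pair of neighbours overlapped. In ECH the order was Insig1, Hmgcs1, Idi1, Srebf2, Cyp51, Fdft1 and Sqle, again with each pair of neighbours overlapping. In HF, Idi1 (10.5 CPM per kb) stood next to Insig1, and Sqle (4.95) stood above Fdft1 (4.08). Srebf2 moved from position 4 to position 2 in HF when the longest transcript was used as the length, so the order of the middle genes rests on the gene model.

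Whether 14 days of isoproterenol moved these genes was read from ECH against Ct. None of the 7 genes was called in this comparison, where a call is a false discovery rate (FDR, Benjamini-Hochberg over all 14608 genes) under 0.05 and at least a 2-fold change. Over all genes 0.356% were called. The log2 fold changes, ECH over Ct, were -0.09 for Srebf2, 0.05 for Insig1, 0.25 for Hmgcs1, 0.70 for Idi1, 0.43 for Fdft1, 0.57 for Sqle and 0.61 for Cyp51, with a median of 0.43 against 0.01 over all genes. The enzymes were thus the higher ones in ECH and the 2 regulatory genes were near 0, but all 95% intervals included 0, and that of Idi1 ran from -0.39 to 1.78. FDR values of edgeR's quasi-likelihood test ran from 0.637 to 0.970. At an unadjusted p under 0.05, 0 of the 7 passed, against 11.9% of all genes. The signs of 3 of these differences rested on single mice. That of Hmgcs1 was -0.066 without ECH 2, and that of Srebf2 was 0.11, 0.054 and 0.11 without Ct 4, ECH 3 and ECH 4. That of Insig1 was -0.064, -0.036 and -0.24 without Ct 2, Ct 4 and ECH 2.

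The 28-day group was compared with Ct to ask the same of failing hearts. All 7 genes were higher in HF than in Ct by fitted fold change, and none was called (0.377% of all genes were). Sqle had the largest difference, a log2 fold change of 1.39 (SE 0.88, FDR 0.467 by edgeR's quasi-likelihood test). Without Ct 2, where it was nearly undetected, the difference was 0.98 (FDR 0.394). Idi1 differed by 1.19 (SE 0.51, FDR 0.281) and Cyp51 by 1.13 (SE 0.48, FDR 0.275) in the same edgeR fit, corresponding to 2.28-fold and 2.19-fold. Their 95% intervals, 0.09 to 2.28 and 0.10 to 2.16 on the log2 scale, did not include 0. Fdft1 (0.76), Hmgcs1 (0.48), Srebf2 (0.39) and Insig1 (0.18) had intervals that did include 0. The median of the 7 was 0.76, against -0.01 over all genes.

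In HF against Ct, Idi1 and Cyp51 passed an unadjusted p under 0.05 by edgeR's quasi-likelihood test, 2 of 7 genes against 16.1% of all genes. Their unadjusted edgeR p values were 0.0362 and 0.0342. Cyp51 was the 1 gene of 7 whose groups did not overlap, against 9.04% of all genes. Without Ct 2 the log2 fold change of Idi1 was 0.91 and that of Cyp51 0.89, with unadjusted edgeR p values of 0.0904 and 0.0914. Without HF 3 they were 0.84 and 0.90, with unadjusted edgeR p values of 0.133 and 0.101. Each of these mice was thus needed for the unadjusted threshold, and Ct 2 is also the library with high B cell and neutrophil markers.

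HF was set against ECH to compare 28 with 14 days of infusion. The 7 genes were all higher in HF, by log2 fold changes of 0.48 for Srebf2, 0.13 for Insig1, 0.23 for Hmgcs1, 0.49 for Idi1, 0.32 for Fdft1, 0.82 for Sqle and 0.52 for Cyp51. None was called, as for all genes (0%), and 0 of 7 reached an unadjusted p under 0.05 by edgeR's quasi-likelihood test, which 7.98% of all genes did. FDR values of this edgeR test ran from 0.743 to 0.971, and every 95% interval included 0. The sign turned for Insig1 without ECH 3 (-0.045) or HF 3 (-0.025), and for Fdft1 without HF 3 (-0.014). DESeq2 likewise called none of the 7 in any of the 3 comparisons. HF and ECH values were set against the same Ct mice in the earlier comparisons, so the 3 sets of differences are not independent.

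**Figure D2:**
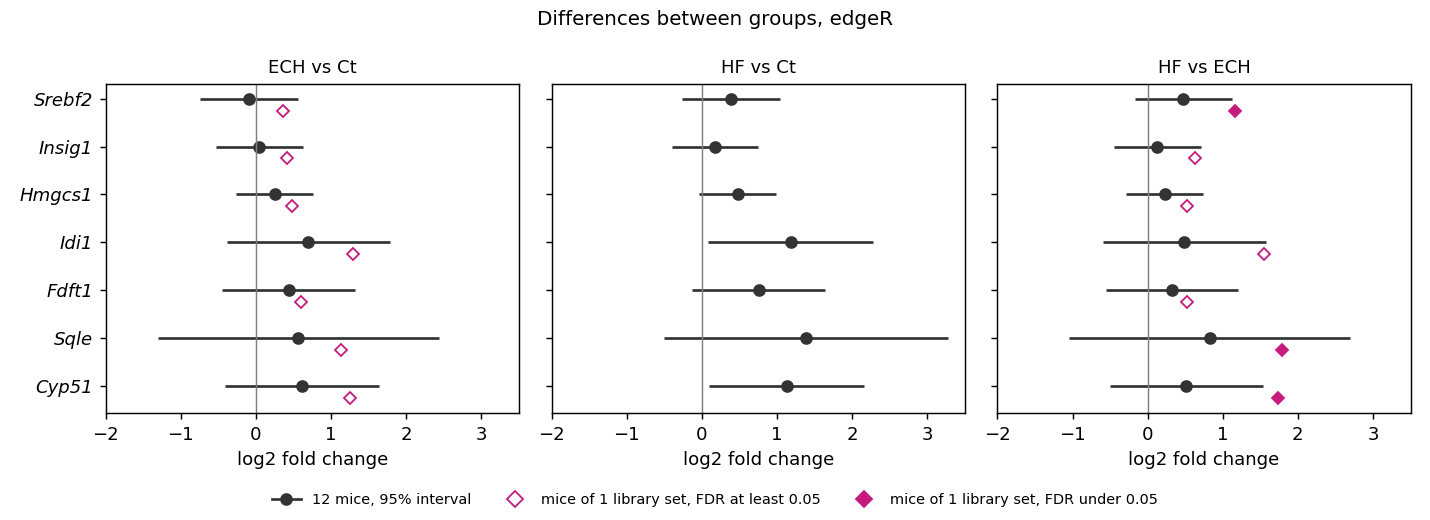
Log2 fold changes of the 7 genes are shown on the horizontal axis for the 3 comparisons, with circles and 95% intervals from all 12 mice and diamonds from the mice of 1 inferred library set. Intervals lie clear of 0 for Idi1 and Cyp51 in HF against Ct, and filled diamonds mark Srebf2, Sqle and Cyp51 in HF against ECH 3 and 4.

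The spread within ECH followed the inferred sets. ECH 1 and 2 both exceeded ECH 3 and 4 for 6 of the 7 genes (Hmgcs1 was the exception), where 26.6% of all genes showed that order and 27.8% the opposite order. For Fdft1 that order was close to a tie, at 13.18 CPM in ECH 1 against 13.16 in ECH 4. The mean of ECH 1 and 2 over that of ECH 3 and 4 was 3.67 for Cyp51, 3.16 for Idi1, 2.91 for Sqle, 2.22 for Srebf2, 1.83 for Insig1, 1.44 for Hmgcs1 and 1.30 for Fdft1. With 2 mice on each side this is a description, and a difference between sets cannot be told apart from one between mice.

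The sets come from the numbers in the labels, not from these levels, but the comparisons within a set that follow were read with the split of the ECH mice known. Because ECH 3 and 4 were low, a higher HF than ECH 3 and 4 and a higher ECH 1 and 2 than Ct restate that split in part and are no independent support for it. Within set A, ECH 1 and 2 were higher than Ct for all 7 genes, with log2 fold changes of 1.29 for Idi1, 1.26 for Cyp51, 1.13 for Sqle, 0.60 for Fdft1, 0.48 for Hmgcs1, 0.41 for Insig1 and 0.37 for Srebf2. None was called (0.00674% of all genes were), and 2 of 7, Idi1 and Cyp51, had an unadjusted p under 0.05 in the edgeR fit, as did 5.03% of all genes. The pooled sign of Srebf2, which was lower in ECH, was thus the opposite within set A.

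Within set B, HF mice were higher than ECH 3 and 4 for all 7 genes, and 3 of the 7 were called, Sqle, Cyp51 and Srebf2, where 2.49% of all genes were called. Sqle differed by 1.79 on the log2 scale (SE 0.30, FDR 0.0181 by edgeR's quasi-likelihood test). Cyp51 differed by 1.74 (SE 0.34, FDR 0.0287) and Srebf2 by 1.17 (SE 0.20, FDR 0.0185) in that edgeR fit. Idi1 (1.55, FDR 0.0868), Insig1 (0.63, FDR 0.150), Hmgcs1 (0.52, FDR 0.203) and Fdft1 (0.52, FDR 0.516) were not called by edgeR. Of the 7 genes, 6, all but Fdft1, had an unadjusted p under 0.05, against 21.2% of all genes. With the set as a covariate over all 12 mice, Srebf2 alone of the 7 was called in HF against ECH, with a log2 fold change of 1.17 (FDR 0.0398 by edgeR), where 1.86% of all genes were called. In the same fit HF against Ct, estimated through the ECH mice and added after seeing the data, differed by 3.004 for Cyp51 (SE 0.58, FDR 0.0282 by edgeR), the 1 gene of the 7 called, where 1.42% of all genes were. The other differences were 2.93 for Sqle, 2.84 for Idi1, 1.54 for Srebf2, 1.13 for Fdft1, 1.05 for Insig1 and 1.01 for Hmgcs1, with edgeR FDR values from 0.0601 to 0.505. Each of the 7 was larger than its pooled value, and the step added is the difference between the ECH pairs. The set B and covariate values rest on 2 ECH mice that were low for these genes, while ECH 2 lay within or above the HF range for all 7 genes and ECH 1 within it for 4.

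The 7 genes varied together from mouse to mouse. Over the 12 libraries, the 21 pairwise Pearson correlations of log2 CPM were all positive, from 0.447 (Hmgcs1 with Fdft1) to 0.947 (Idi1 with Cyp51), with a median of 0.739. With the group means removed they ran from 0.235 to 0.928, with a median of 0.673. Spearman's rho ran from 0.413 to 0.958. The points share libraries and their depth and purity, and they are given with no test. HF 3 held the highest level of the 12 libraries for 5 genes and ECH 2 for the remaining ones, and Ct 2 held the lowest for 4, Idi1, Fdft1, Sqle and Cyp51.

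Among the 8913 other genes with a mean log2 CPM of at least 3, likeness was the Pearson r of a gene with the mean of the 7 standardized levels over the 12 libraries. Among the 10 most alike were Olfml3 (r = 0.93), Nnt (0.92), Fam20c (0.92), Ppid (0.92), Oasl2 (0.90), Setd8 (0.90), Lcp1 (0.90), Tram1 (0.89) and Mnda (0.89). Msmo1, a demethylation enzyme after CYP51, had an r of 0.71. Lss (0.19), between SQLE and CYP51 in the pathway, and Dhcr7 (-0.14), at its end, did not follow the 7 genes closely over the 12 libraries. These r values rest in part on Ct 2 and HF 3, the 2 libraries farthest out. Without them r was 0.84 for Msmo1, -0.50 for Lss and -0.78 for Dhcr7. For the most alike genes named above it ran from 0.74 (Mnda) to 0.94 (Fam20c).

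**Figure D3:**
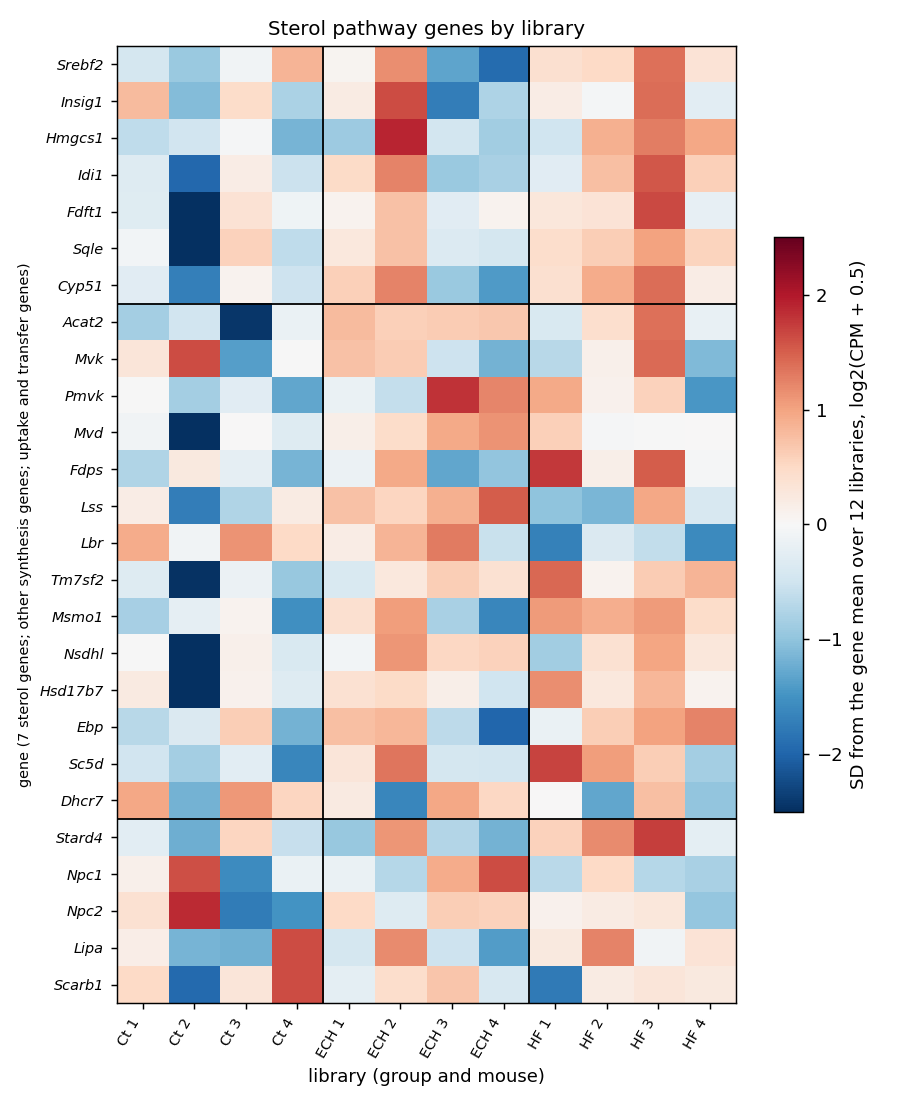
Rows are the 7 sterol genes, 14 other sterol synthesis genes and 5 uptake and transfer genes, columns are the 12 libraries, and colour is the distance of log2(CPM + 0.5) from the mean of the gene in units of its SD over libraries. The 7 genes are high together in ECH 2 and HF 3 and mostly low in Ct 2, ECH 3 and ECH 4, and Msmo1 and Ebp share much of that pattern while Lss, Pmvk and Npc1 do not.

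The remaining steps of sterol synthesis were read from 16 further genes, all tested, of which none was called in any comparison. In ECH against Ct, 13 were higher and 3 lower, with a median log2 fold change of 0.46, from -0.12 for Dhcr7 to 0.87 for Mvd (the decarboxylase that precedes IDI1). At an unadjusted p under 0.05 by edgeR, 3 of the 16 passed, all higher, against 11.9% of all genes. In HF against Ct, 13 were higher and 3 lower, with a median of 0.45, and the lowest was Lbr, a sterol reductase of the nuclear envelope (-0.39). At that p, 4 higher and 1 lower of the 16 passed, against 16.1% of all genes. In HF against ECH, 9 were higher and 7 lower, with a median of 0.06, from -0.58 for Lss, lanosterol synthase, to 0.70 for Fdps, farnesyl diphosphate synthase. Here 1 of the 16 passed that p in each direction, against 7.98% of all genes. The further synthesis genes thus had a median like that of the 7 genes in ECH against Ct and a lower one in the other comparisons, a difference that was not tested.

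Uptake and intracellular transfer were covered by 9 genes, of which 8 were tested and none was called. The medians were 0.03 in ECH against Ct, 0.05 in HF against Ct and -0.04 in HF against ECH. Vldlr, a lipoprotein receptor, was the lowest in ECH against Ct (-1.73, FDR 0.486) and in HF against Ct (-1.74, FDR 0.371), both by edgeR's quasi-likelihood test. Stard4, a sterol carrier, was the highest in HF against Ct (0.66) and in HF against ECH (0.65), and Npc1, which exports cholesterol from lysosomes, the lowest in HF against ECH (-0.26).

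The genes that process SREBPs showed small differences. None of 10 was called, with medians of 0.15, 0.12 and -0.01 in ECH against Ct, HF against Ct and HF against ECH. Srebf1, which encodes the sister factor of fatty acid synthesis, was the highest against Ct, by 0.48 in ECH (FDR 0.282) and 0.42 in HF (FDR 0.260, both by edgeR), and Insig2, the second retention protein, was the highest in HF against ECH (0.26). Mbtps2, the site 2 protease that frees the active factor, was the lowest in all 3 comparisons, at -0.12, -0.51 and -0.39. The isoprenoid branch, 6 genes that use pathway intermediates for dolichol, ubiquinone and prenylation, had medians of 0.17, 0.25 and 0.05 and no call. Its extremes were Nus1 (0.70) and Pdss1 (-0.32) in ECH against Ct, Dhdds (0.63) and Ggps1 (-0.37) in HF against Ct, and Coq2 (0.53) and Nus1 (-0.82) in HF against ECH.

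Fatty acid synthesis, the arm driven mainly by SREBP1, had a different outline. None of its 12 genes was called, and the medians were 0.45 in ECH against Ct, 0.16 in HF against Ct and -0.45 in HF against ECH, where 10 of 12 were lower. Scd1, stearoyl-CoA desaturase, was the lowest gene in all 3 comparisons, by -1.46 (FDR 0.284), -2.38 (FDR 0.0811) and -0.91 (FDR 0.707), all by edgeR's quasi-likelihood test. The highest were Gpam (1.46) in ECH against Ct and Me1 in HF against Ct (1.33) and HF against ECH (0.97), none with an FDR under 0.05. LXR targets, genes switched on when sterol accumulates, numbered 6 and had medians of 0.16, -0.09 and -0.32. Nr1h3, which encodes LXRα, was the highest in each comparison (0.68, 0.95 and 0.27) and Mylip, a ubiquitin ligase, the lowest (0.01, -0.58 and -0.59), with no call by edgeR.

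Within set B, the genes called in HF against ECH 3 and 4 besides the 3 above included Coq2 (1.04), Nus1 (-1.07) and Elovl5 (-1.34). None of the 16 further synthesis genes was called there, and 9 of them were higher and 7 lower. Msmo1 missed the call by its fold change alone (0.94 on the log2 scale, edgeR FDR 0.0156). Within set A no pathway gene was called.

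**Figure D4:**
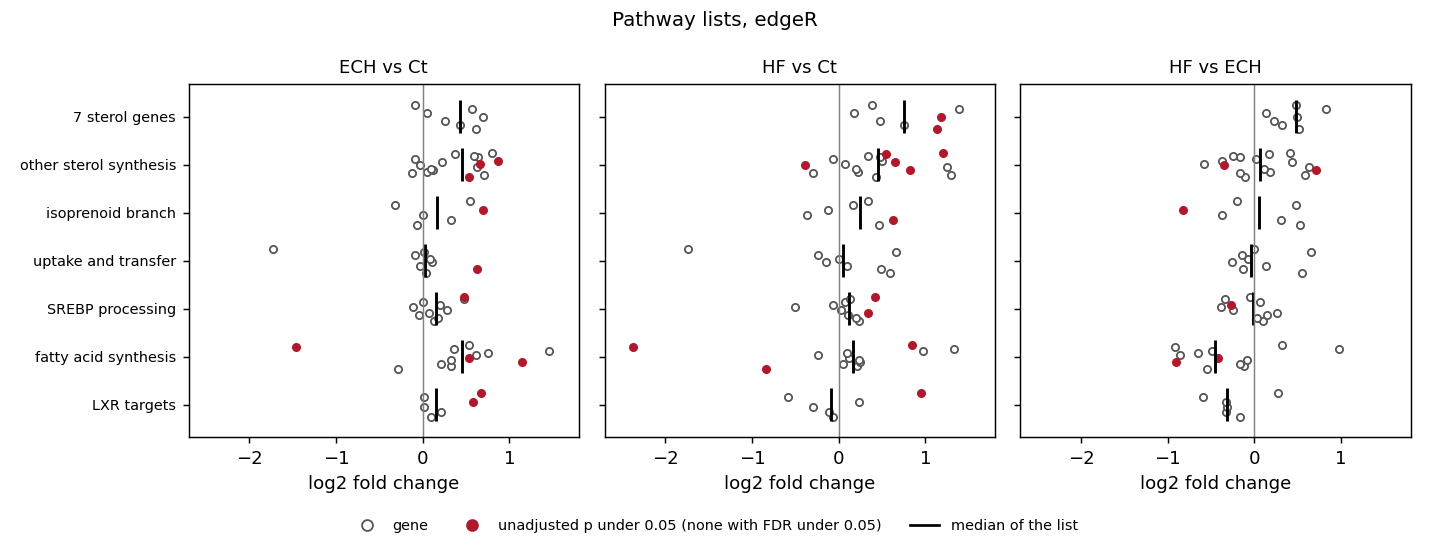
Each point is 1 gene placed by its log2 fold change on the horizontal axis, with 1 row per list and 1 panel per comparison, filled where the unadjusted p was under 0.05, and a bar at the median of the list. The 7 sterol genes have the largest median in HF against Ct (0.76) and in HF against ECH (0.48), and fatty acid synthesis and LXR targets lie to the left of 0 in HF against ECH (-0.45 and -0.32).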

How the data were processed

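Counts were deposited by the authors as 1 file per library, holding raw counts of 24445 gene symbols without normalization. Per the labels and the methods of the study, cDNA was made with SMART-Seq v4, and the submitters' processing notes name FastQC, Trimmomatic, TopHat2, featureCounts and edgeR with build mm10. Their versions, the annotation and the strand setting are not stated there. No molecular identifiers were used, so reads are not independent molecules, and genes with exactly 2 counts outnumbered those with 1 or 3 in all 12 libraries.

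Samples were grouped by the treatment in their labels. The analysis used edgeR 4.0.16 (R 4.3.3). filterByExpr by group left 14608 genes, libraries were scaled by TMM, and 1 quasi-likelihood model with a mean per group was fitted to 12 libraries. A gene was called where it changed at least 2-fold with an FDR under 0.05, the thresholds of the study. Totals ran from 88466559 to 111180291 counts, and the biological coefficient of variation was 60.8%. With 1 library per mouse, that value holds the spread between mice and that of library preparation together. Because reads are not independent molecules, the totals do not give the error of sampling molecules. Lengths came from GENCODE M21 (GRCm38). The scripts were tested on simulated data. The 7 genes and all lists were chosen with earlier results of these data known.

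The genes named are the 7 members, in each other pathway list those called in a comparison and the highest and lowest log2 fold change of each comparison, and the 10 most alike by r. Some genes that this rule names are not reported here. Msmo1, Ebp, Lss, Pmvk and Dhcr7 were added after their values were seen. Alternatives were RLE and upper-quartile scaling, 2 other filters, the likelihood ratio test, DESeq2 1.42.0, limma-voom (limma 3.58.1), other thresholds, other sample sets, a replicate block, the inferred set, and each library left out. Leaving out Ct 2 and HF 1 together, and the set as a covariate in HF against Ct, were added after seeing the data. Replicate numbers were not taken as pairs: 1 of 12 same-number pairs had deviations correlated over 0.1 (range -0.176 to 0.137).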

Additional observations from a re-analysis of the deposited data

Results flagged for a closer look

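A gap test (Dixon, 95% level) was made on the 4 mice of each group for each of the 7 genes, 21 groups of values in all, and 2 were past its limit, where chance gives about 1 in 20. Srebf2 in HF 3 was at 81.8 CPM, with the other HF mice at 56.9 to 60.4 CPM. Hmgcs1 in ECH 2 was at 56.1 CPM, with the other ECH mice at 27.0 to 30.4 CPM. Without HF 3 the log2 fold change of Srebf2 in HF against Ct was 0.25, and without ECH 2 that of Hmgcs1 in ECH against Ct was -0.066. Neither cause was tested.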

How the results depend on the processing

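Of 497 alternative log2 fold changes of the 7 genes, 478 kept their direction and their side of the threshold, 14 changed sign and 5, 4 in HF against ECH and 1 in HF against Ct, all with the inferred set taken into account, passed the threshold where the pooled value did not. None of the 7 genes was called in a pooled comparison under RLE or upper-quartile scaling, either other filter, the likelihood ratio test, DESeq2, limma-voom, the replicate block or any left-out library. At an unadjusted p under 0.05, 2 of the 7 passed in HF against Ct. In HF against ECH, 1 of the 7 was called with the set as a covariate and 3 within set B. In HF against Ct, 1 was called with the set as a covariate, a fit added after seeing the data that rests on the ECH mice as the link between sets. No within-set fit exists for HF against Ct, since no set holds both groups.

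Signs changed where differences were small. Srebf2 in ECH against Ct was 0.37 with the covariate and 0.37 within set A, and -0.44 to 0.11 with 1 library left out. Insig1 in ECH against Ct was -0.10 by limma-voom, -0.075 without both Ct 2 and HF 1, and -0.24 to 0.22 with 1 library left out. With 1 library left out, Insig1 in HF against ECH ran from -0.045 to 0.42, Fdft1 in HF against ECH from -0.014 to 0.48 and Hmgcs1 in ECH against Ct from -0.066 to 0.36.

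Counts of all genes called depended more on the method. In ECH against Ct, 52 genes became 218 by the likelihood ratio test, 248 by DESeq2, 84 by limma-voom, 8 with the other group left out of the fit, 22 with the replicate block, 22 with the set as a covariate, 1 within set A, 1741 at an unadjusted p under 0.05, and 11 (without Ct 1) to 95 (without Ct 3) with 1 library left out. In HF against Ct, 55 became 273, 337 and 130 by those 3 tests, 18 with the replicate block, 208 with the covariate, 2347 at an unadjusted p, and 15 (without Ct 1) to 103 (without Ct 3). In HF against ECH, 0 by the main test became 48 by the likelihood ratio test, 47 by DESeq2, 272 with the covariate, 370 within set B and 1165 at an unadjusted p. The causes were not tested.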
